A study of Mus musculus with 6 samples.

Results

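Complement and coagulation transcripts were examined in mouse ear skin during contact dermatitis. The set comprised 37 named genes, matched by symbol in a table of 19309 genes: 25 complement components, receptors and regulators and 12 coagulation factors and anticoagulants. The samples were ears of C57BL/6 mice aged 6 to 8 weeks, with 1 library per ear and 3 animals. All 3 animals had been sensitised on day 1 by smearing 25 µL of 0.5% 2,4-dinitrofluorobenzene (DNFB), a hapten that binds to proteins of the skin and so elicits T cells. Left ears were challenged with 10 µL of 0.25% DNFB starting on day 6, while right ears were given 10 µL of solvent only (80% acetone, 20% olive oil), for 6 days before collection. The vehicle ears therefore came from sensitised animals that carried a DNFB-treated ear on the other side, and no ear of an unsensitised mouse was analysed here.

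Complement is a cascade of plasma and tissue proteins that marks surfaces for removal, releases chemoattractant peptides and can assemble a membrane pore. It is started by C1 on antibody or other ligands, by lectins on sugars, or by the alternative pathway, and all routes converge on C3. Coagulation starts when tissue factor meets factor VII, runs through factors X and V to thrombin and fibrin, and is held back by tissue factor pathway inhibitor and by the thrombomodulin and protein C system. Many of these proteins in plasma are made by the liver, while fibroblasts, endothelial cells, keratinocytes and myeloid cells can make some of them locally.

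Libraries held 19556754 to 20336945 estimated read counts, so depth was close to even. Values within a gene are given as CPM, counts scaled to library size and adjusted by the trimmed mean of M values (TMM), and levels between genes as the deposited TPM, which also account for gene length. The tissue carried keratinocyte and fibroblast transcripts in every library, with the basal keratin Krt14 at 3683 to 5988 TPM. By edgeR's quasi-likelihood test with Benjamini-Hochberg adjustment, 51.3% of the 15317 genes tested passed the threshold of 0.05. Higher calls in DNFB ears made up 25.9% and lower calls 25.4%. The DNFB ear of mouse 3 moved less than the others: over all genes called higher, the median within-animal log2 change was 1.11, 1.11 and 0.75 in mice 1, 2 and 3. In whole-ear RNA, a change in the number of cells of a type and a change in RNA per cell cannot be told apart.

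Of the 37 genes, 24 were higher in DNFB ears (25.9% of all genes tested), 3 were lower (25.4% of all), 8 did not pass and 2 (Cfi and Vsig4) had too few counts to be tested. The 3 that fell were the lectin Colec12, the pore inhibitor Cd59a and tissue factor, F3. The median log2 fold change of the 35 tested genes was 0.99, beside −0.02 over all genes tested, and the CPM of the groups did not overlap for 28 of the 35, beside 62.6% of all genes tested. Among the 35, C6, F7 and Tfpi2 passed the filter on low counts only through the DNFB ears, so a difference was built into their being tested. Without these, 21 were higher and the same 3 lower. C7, which did not pass the threshold, was testable only through the vehicle ears. By role, 11 of 16 complement components, 3 of 4 receptors, 1 of 5 complement regulators, 4 of 7 coagulation factors and all 5 anticoagulants were higher. The median, the 28 genes without overlap and these counts by role include C6, F7 and Tfpi2.

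**Figure D1:**
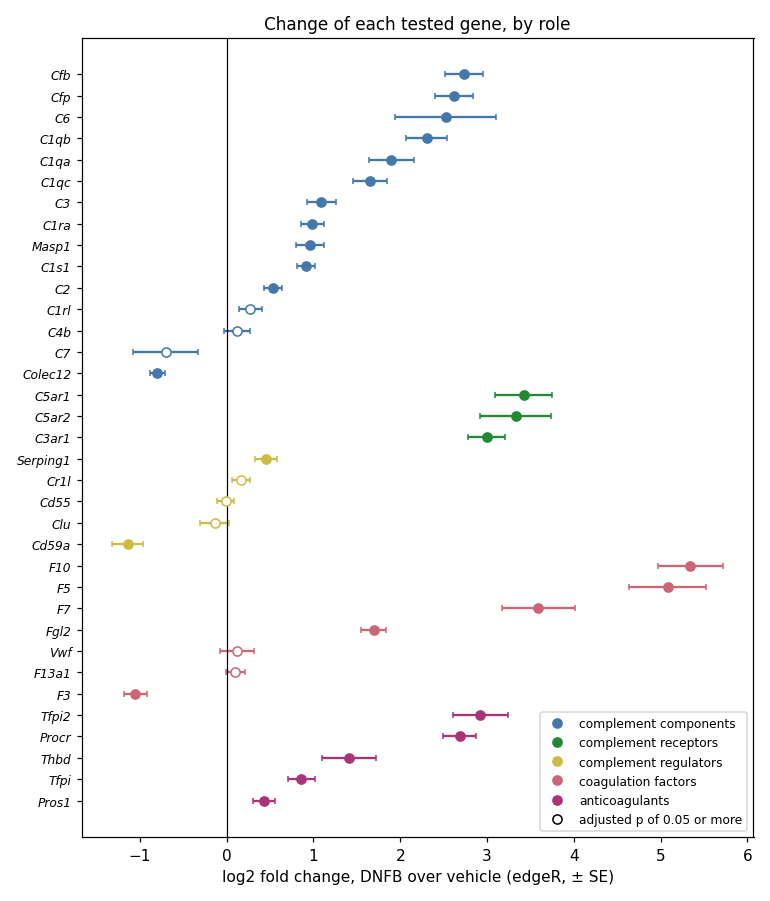
Log2 fold change of DNFB over vehicle ears (x axis, edgeR, bars ± SE) for the 35 tested genes, coloured by role, with open points for the 8 genes that did not pass. The largest increases were F10 at 5.34 and F5 at 5.08, and the 3 filled points left of zero are Colec12, Cd59a and F3.

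On the TPM scale the genes spanned a wide range of levels. In vehicle ears the most abundant was Serping1, the C1 inhibitor, at a mean of 478 TPM, followed by the extracellular chaperone and complement inhibitor Clu at 415 TPM. The 3 chains of C1q came next, C1qc at 271, C1qb at 233 and C1qa at 219 TPM, and tissue factor came sixth at 155 TPM. In DNFB ears C1qb was first at 1140 TPM, C1qc followed at 842 and C1qa at 807 TPM, and Serping1 came after them at 647 TPM. Tissue factor moved to place 17 at 74.1 TPM. At the low end, mean TPM in vehicle ears stayed under 1 for F10, C7, Tfpi2, C5ar2, Vsig4, C6, F7 and F5, and no count of Cfi was recorded there.

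C1q is the recognition unit of the classical pathway, a bundle of A, B and C chains, and macrophages and dendritic cells are known to make it. C1qa measured 132, 131 and 138 CPM in the vehicle ears of mice 1, 2 and 3 and 644, 541 and 309 CPM in their DNFB ears. It was 3.72-fold higher (log2 fold change 1.90 ± 0.26 SE, adjusted p = 0.00117 by edgeR). C1qb measured 144, 150 and 142 CPM in vehicle ears and 925, 750 and 482 CPM in DNFB ears. This was a 4.94-fold increase (2.30 ± 0.23 on the log2 scale, edgeR adjusted p = 0.000412), larger than that of its partner chains. C1qc went from 155, 165 and 164 to 618, 542 and 361 CPM, a 3.14-fold increase (1.65 ± 0.20, edgeR adjusted p = 0.000750). In each case every DNFB ear lay above every vehicle ear and the DNFB ear of mouse 3 was the lowest of its group.

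The chains did not keep their proportions. C1qb made up 32.6%, 32.9% and 31.3% of the summed C1q TPM in the vehicle ears of mice 1, 2 and 3, and 41.5%, 40.1% and 41.0% in their DNFB ears. C1qc made up 36.8%, 37.8% and 37.7% in vehicle ears and 29.0%, 30.4% and 32.2% in DNFB ears. Neither share overlapped between groups, while the share of C1qa, 29.3% to 31.0% in vehicle and 26.8% to 29.6% in DNFB ears, did. The ratio of C1qb to C1qc was 0.886, 0.868 and 0.830 in vehicle ears and 1.43, 1.32 and 1.28 in DNFB ears. With 3 libraries against 3, an exact two-sided permutation test of such a ratio cannot give a p under 0.10. The sum itself was 695 to 771 TPM in vehicle ears and 3536, 2985 and 1848 TPM in the DNFB ears of mice 1, 2 and 3, and the shares in mouse 3 were close to those in the other animals although its sum was lower.

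**Figure D2:**
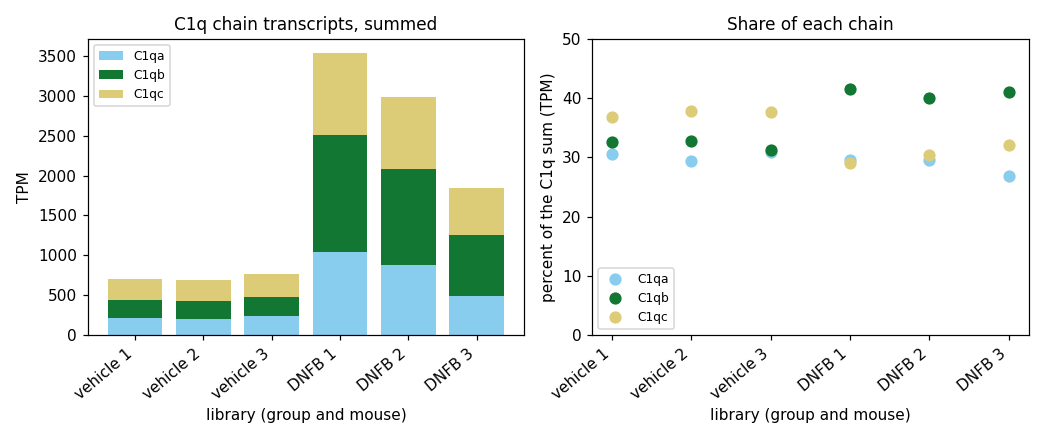
Left, summed TPM of C1qa, C1qb and C1qc (y axis) in each of the 6 libraries (x axis), and right, the percent of that sum from each chain. C1qb rises from 31.3% to 32.9% of the sum in vehicle ears to 40.1% to 41.5% in DNFB ears, and C1qc takes the opposite course.

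Transcripts of macrophages and monocytes rose in the same ears. Of 15 marker genes 13 were higher (25.9% of all genes tested) and 2 (Lyve1 and Mertk) did not pass. The summed level of the list was 1293 to 1590 TPM in vehicle and 4083 to 6177 TPM in DNFB ears. None of the 15 was under 1 TPM throughout. Per unit of the macrophage surface gene Adgre1, C1qa was 9.78, 9.26 and 9.70 in vehicle ears and 10.3, 10.8 and 8.81 in DNFB ears, so the groups overlapped. C1qb per Adgre1 was 10.4, 10.4 and 9.80 against 14.4, 14.6 and 13.5, with no overlap, and C1qc per Adgre1 was 11.8, 11.9 and 11.8 against 10.1, 11.1 and 10.6, lower in all 3 DNFB ears. Other denominators gave other pictures. Per unit of the receptor gene Csf1r, C1qa was 3.11 to 3.51 in vehicle and 4.13 to 4.42 in DNFB ears and C1qb 3.32 to 3.93 and 5.60 to 6.50, both without overlap, while C1qc overlapped at 3.75 to 4.53 and 4.24 to 5.09. Per unit of the lysosomal macrophage gene Cd68, C1qb was 1.61 to 1.91 in vehicle and 1.90 to 2.34 in DNFB ears, which overlapped, as did C1qa at 1.60 to 1.79 and 1.24 to 1.67. C1qc per Cd68 was 1.95 to 2.16 in vehicle and lower in DNFB ears, at 1.46 to 1.64. The part of macrophage number in the C1q result was not tested.

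Promoters of C1qb and C1qc, genes that lie side by side with C1qa and rose together, are shown for the 250 bases before the transcription start. They come from RefSeq on GRCm38.p6, in lower case, with the core motif GAGGAA of the myeloid factor PU.1 (either strand) in capitals. The C1qb stretch is chr4:136886201-136886450 and the C1qc stretch chr4:136892915-136893164, both on the minus strand.

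C1qb: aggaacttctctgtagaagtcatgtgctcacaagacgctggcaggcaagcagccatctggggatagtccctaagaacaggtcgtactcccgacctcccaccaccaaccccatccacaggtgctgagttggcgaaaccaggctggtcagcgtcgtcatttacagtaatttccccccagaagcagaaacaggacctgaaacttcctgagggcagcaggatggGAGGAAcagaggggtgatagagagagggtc
C1qc: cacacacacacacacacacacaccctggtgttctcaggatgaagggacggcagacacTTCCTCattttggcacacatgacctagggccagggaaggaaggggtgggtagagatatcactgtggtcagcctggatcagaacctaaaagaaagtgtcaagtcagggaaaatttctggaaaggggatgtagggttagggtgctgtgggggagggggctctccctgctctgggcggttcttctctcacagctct

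The motif stood on the gene's own strand 25 to 30 bases before the start of C1qb and on the opposite strand 188 to 193 bases before that of C1qc. It is a common run of letters, present on either strand in 23.3% of all 32851 promoters of this length and in 9 of the 32 promoters that the table holds for 26 of the genes. A match describes letters only and says nothing of binding.

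The proteases that C1q carries rose less. C1ra, the protease that activates C1s, measured 126, 117 and 134 CPM in vehicle ears and 256, 280 and 210 CPM in DNFB ears, 1.98-fold higher (0.99 ± 0.13, edgeR adjusted p = 0.00112). C1s1, the protease that cleaves C4 and C2, measured 116, 126 and 123 CPM in vehicle ears and 246, 229 and 211 CPM in DNFB ears. It was 1.88-fold higher (0.91 ± 0.10, edgeR adjusted p = 0.000539), and the groups were apart in both genes. C1rl, a C1r-like protease, stood at 9.87 to 10.2 CPM in vehicle and 10.3 to 13 CPM in DNFB ears, short of the threshold (0.27 ± 0.13, edgeR adjusted p = 0.132, range over 18 alternatives 0.0239 to 0.478). Leaving out mouse 3, by its DNFB ear (0.0239) or by both ears (0.0375), brought C1rl past the threshold. C1ra and C1s1 have near-identical copies, C1rb and C1s2, that stayed at or below 0.65 TPM in every library, and how reads were split between copies is uncertain.

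The next steps of the classical pathway differed among themselves. C4b, a gene of the C4 protein that C1s cleaves to tag surfaces, was abundant and did not pass. It measured 346, 349 and 423 CPM in vehicle and 407, 466 and 343 CPM in DNFB ears (0.12 ± 0.15, edgeR adjusted p = 0.525, range over alternatives 0.0366 to 0.961, the lowest without both ears of mouse 3). Its copy C4a reached at most 0.17 TPM. C2, whose fragment joins that of C4 in the C3 convertase, rose 1.45-fold, from 26.0, 26.9 and 27.6 to 37.6, 35.8 and 43.0 CPM (0.53 ± 0.10, edgeR adjusted p = 0.00487). It did not pass without both ears of mouse 1 (0.0567) or of mouse 2 (0.0570), the highest of 18 alternatives, whose lowest was 0.000115. C3, the point where the pathways meet, went from 289, 266 and 370 to 675, 728 and 568 CPM. That was 2.13-fold higher (1.09 ± 0.16, edgeR adjusted p = 0.00182), with the 2 groups apart.

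Factor B and properdin, which belong to the alternative pathway, had larger increases than C2 and C3. Cfb, the protease of the alternative C3 convertase, measured 54.3, 55.6 and 61.1 CPM in vehicle ears and 458, 417 and 263 CPM in DNFB ears. It was 6.65-fold higher (2.73 ± 0.22, edgeR adjusted p = 0.000173). Cfp, properdin, which stabilises that convertase and is known from neutrophils and monocytes, went from 40.9, 41.5 and 38.6 to 314, 258 and 173 CPM, 6.16-fold higher (2.62 ± 0.22, edgeR adjusted p = 0.000201). Cfb and C2 are neighbours with related products, and the ratio of their TPM was 2.09, 2.08 and 2.23 in vehicle ears and 12.2, 11.7 and 6.15 in DNFB ears. In the GENCODE annotation 1 gene model on the same strand (Gm20547) shares exon bases with both. C2 also shares 141 exon bases with Zbtb12 on the opposite strand, so the assignment of some reads to Cfb and C2 is uncertain. Cfi, the protease that inactivates C3b, had 3 counts in all, each in the DNFB ear of mouse 1, so no fold is given.

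The lectin and terminal members were mixed. Masp1, a protease of the lectin pathway, rose 1.95-fold, from 24.2, 21.8 and 29.4 to 55.6, 51.0 and 40.1 CPM (0.96 ± 0.16, edgeR adjusted p = 0.00298), but without both ears of mouse 2 it did not pass (0.0650, the highest of 18 alternatives, lowest 6.21e-06). Colec12, a membrane collectin and scavenger receptor known from endothelium, fell 1.74-fold, from 204, 215 and 213 to 120, 118 and 125 CPM (−0.80 ± 0.09, edgeR adjusted p = 0.000509). Its libraries were tight within each group and far apart between them. C6, which inserts into the membrane pore, was scarce at 0.80, 0.31 and 0.53 CPM in vehicle and 4.41, 4.0 and 1.14 CPM in DNFB ears. It rose by 2.53 ± 0.58 on the log2 scale (edgeR adjusted p = 0.00998, range 0.000185 to 0.125, the highest without both ears of mouse 2). C6 was testable only through the DNFB ears, so a difference was built into its being tested. C7, its neighbour in the pore, was at 0.85, 1.34 and 1.06 CPM in vehicle and 0.45, 0.55 and 0.99 CPM in DNFB ears. It did not pass (−0.70 ± 0.37, edgeR adjusted p = 0.154), except without the DNFB ear of mouse 3 (0.0366, the lowest of its alternatives, highest 0.592). C7 was testable only through the vehicle ears, so a difference was built into its being tested.

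**Figure D3:**
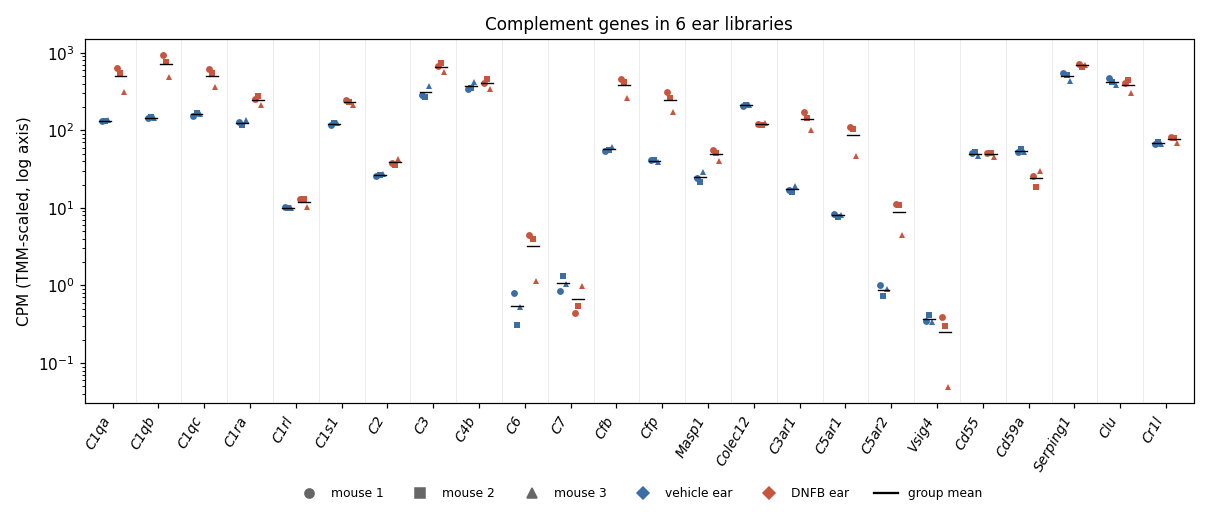
CPM on a log axis (y) of 24 complement genes (x) in each library, with blue for vehicle and red for DNFB ears, a symbol for each mouse and a bar for the group mean; Cfi, with no count in vehicle ears, is left out. The receptors C3ar1, C5ar1 and C5ar2 and the alternative pathway genes Cfb and Cfp show wide gaps between groups, and Cd55, Clu and C4b overlap.

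The receptors for the chemoattractant peptides had the largest increases among the 25 complement genes of the set. C3ar1, the receptor of C3a, measured 16.9, 16.0 and 19.2 CPM in vehicle ears and 174, 142 and 99.9 CPM in DNFB ears, 7.97-fold higher (2.99 ± 0.21, edgeR adjusted p = 0.000125). C5ar1, the signalling receptor of C5a on neutrophils and macrophages, went from 8.34, 7.65 and 8.17 to 110, 103 and 46.7 CPM, 10.7-fold higher (3.42 ± 0.33, edgeR adjusted p = 0.000341). C5ar2, a second C5a receptor that does not couple to G proteins, went from 1.00, 0.72 and 0.91 to 11.1, 11 and 4.5 CPM (3.33 ± 0.41, edgeR adjusted p = 0.000808). C5ar1 and C5ar2 are adjacent genes, and C5ar1 was 9.71 to 14.9 times as abundant as C5ar2 in vehicle ears and 12.4 to 13.8 times in DNFB ears, so the ratio overlapped between groups. Vsig4, the complement receptor of resident macrophages that takes up C3b-coated particles, had 22 counts in vehicle and 15 in DNFB ears and was not tested.

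All 10 neutrophil markers were higher in the same ears, beside 25.9% of all genes tested. Their summed level was 293 to 467 TPM in vehicle and 3340 to 7055 TPM in DNFB ears, the lowest in mouse 3. No marker of that list was under 1 TPM throughout. The integrin Itgam, found on neutrophils and macrophages, rose more than the receptors did: the TPM ratio of C5ar1 to Itgam was 0.738, 0.719 and 0.610 in vehicle and 0.546, 0.525 and 0.428 in DNFB ears. The ratio of Cfp to Itgam was 5.59, 5.98 and 4.41 against 2.39, 2.03 and 2.44. The part of leukocyte number in the increases of the receptors and of properdin was not tested.

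Of the 5 complement regulators 1 was higher, 1 lower and 3 did not pass, beside 25.9% higher and 25.4% lower of all genes tested. Serping1, which blocks C1r, C1s and contact-phase proteases, went from 551, 521 and 435 to 708, 663 and 687 CPM, 1.37-fold higher (0.45 ± 0.12, edgeR adjusted p = 0.0200). The 2 groups did not overlap, but the call was lost with the mouse as a block (0.0573), without the DNFB ear of mouse 1 (0.0560) or of mouse 2 (0.0528), and without both ears of mouse 1 (0.10) or of mouse 2 (0.121). Over its 18 alternatives the adjusted p ran from 0.00103 to 0.121. Cd59a, the membrane protein that stops the pore from forming, fell 2.21-fold, from 53.0, 57.4 and 52.8 to 25.5, 18.4 and 30 CPM (−1.14 ± 0.17, edgeR adjusted p = 0.00192). Its copy Cd59b stayed at or below 1.81 TPM.

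The other 3 regulators did not pass. Cd55, which dismantles C3 convertases on cell surfaces, was at 50.7, 51.9 and 46.1 CPM in vehicle and 51.4, 50.9 and 45.2 CPM in DNFB ears (−0.01 ± 0.10, edgeR adjusted p = 0.927). Clu stood at 472, 423 and 381 CPM in vehicle and 410, 442 and 306 CPM in DNFB ears (−0.14 ± 0.16, edgeR adjusted p = 0.503). Cr1l, known as Crry, the main rodent inhibitor of C3 convertases on cells, was at 67.1 to 71.5 CPM in vehicle and 67.9 to 83.2 CPM in DNFB ears (0.16 ± 0.10, edgeR adjusted p = 0.223). Cr1l passed without the DNFB ear of mouse 3 (0.0422), the lowest of its alternatives, which reached 0.694. The TPM ratio of C3 to the C1 inhibitor Serping1 was 0.227, 0.224 and 0.368 in vehicle ears and 0.412, 0.479 and 0.374 in DNFB ears, with vehicle and DNFB ears nearly equal in mouse 3.

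Among coagulation factors, 3 that are scarce in vehicle ears had the largest increases of all 37 genes. F10, the factor that forms the prothrombin-cleaving enzyme, measured 1.30, 0.83 and 1.59 CPM in vehicle ears and 57.4, 64.2 and 30.4 CPM in DNFB ears. It was 40.6-fold higher (5.34 ± 0.38, edgeR adjusted p = 0.000120). F5, the cofactor of F10, measured 1.00, 0.78 and 1.20 CPM in vehicle ears and 43.8, 41.1 and 16.6 CPM in DNFB ears. It was 33.8-fold higher (5.08 ± 0.45, edgeR adjusted p = 0.000253), or higher by 4.45 on the log2 scale when the deposited TPM were tested with limma (pseudocount 0.1). F7, the partner of tissue factor, had 4, 4 and 9 counts in vehicle ears, and went from 0.20, 0.21 and 0.43 to 4.16, 4.05 and 2.17 CPM. Its log2 fold change was 3.59 ± 0.42 (edgeR adjusted p = 0.000686), or 4.31 without both ears of mouse 3. F7 passed the filter on low counts only through the DNFB ears, so a difference was built into its being tested. In all 3 genes the lowest DNFB ear, that of mouse 3, was still far above the highest vehicle ear. The TPM ratio of F10 to Itgam was 0.107, 0.070 and 0.109 in vehicle and 0.268, 0.310 and 0.260 in DNFB ears. F10 thus rose by more than Itgam in every animal, but the picture depends on the leukocyte gene chosen. Csf3r (78.3-fold) and Ly6c2 (137-fold) rose by more than F10, and Adgre1 (3.51-fold) and Cd68 (4.26-fold) by less. The part of leukocyte number in the increase of F10 was not tested.

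The promoters of these 3 genes are shown as those with the largest increases, for the 250 bases before the start, from RefSeq on GRCm38.p6, all on the plus strand and with GAGGAA on either strand in capitals. They lie at chr8:13037058-13037307 for F10, chr8:13025784-13026033 for F7 and chr1:164151585-164151834 for F5.

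F10: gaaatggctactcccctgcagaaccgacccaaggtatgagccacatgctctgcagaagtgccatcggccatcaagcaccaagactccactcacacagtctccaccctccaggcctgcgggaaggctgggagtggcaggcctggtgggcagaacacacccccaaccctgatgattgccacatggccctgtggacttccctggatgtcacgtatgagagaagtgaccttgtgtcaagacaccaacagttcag
F7: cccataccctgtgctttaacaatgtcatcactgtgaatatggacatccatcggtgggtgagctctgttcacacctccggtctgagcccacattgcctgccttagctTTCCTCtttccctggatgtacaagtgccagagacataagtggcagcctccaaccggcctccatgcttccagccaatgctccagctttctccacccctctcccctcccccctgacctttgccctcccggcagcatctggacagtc
F5: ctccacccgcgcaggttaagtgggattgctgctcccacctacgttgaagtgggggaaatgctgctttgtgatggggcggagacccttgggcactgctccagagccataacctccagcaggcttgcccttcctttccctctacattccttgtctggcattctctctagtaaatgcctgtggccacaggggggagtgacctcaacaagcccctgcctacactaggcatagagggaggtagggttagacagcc

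F7 and F10 are adjacent genes. The core motif occurred once, on the opposite strand 139 to 144 bases before the start of F7, and its letters were not in the windows of F10 and F5. None of these 3 windows, nor those of C1qb and C1qc, held the other 5 motifs searched on both strands. Those were the interferon-stimulated response element (in 2.98% of all promoters), TTCNNNGAA of STAT factors (7.02%), the NF-kappaB element (1.41%), TGANTCA of AP-1 (6.75%) and TTGCNNAA of C/EBP (9.56%). Among the 32 promoters of the set they were found in 1, 3, 1, 5 and 5.

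Tissue factor, which starts coagulation when blood meets extravascular cells, went the other way. F3 measured 189, 176 and 139 CPM in vehicle ears and 79.2, 77.4 and 86.2 CPM in DNFB ears, 2.07-fold lower (−1.05 ± 0.13, edgeR adjusted p = 0.000902). The DNFB ears were close to each other and all below the vehicle ears. Keratinocytes are a known site of tissue factor. Of 10 keratinocyte markers 4 (Krt10, Krt15, Lor and Flg2) fell, beside 25.4% of all genes tested. The other 6, including the basal keratins Krt5 and Krt14, did not pass. The summed level of that list was 15277 to 19376 TPM in vehicle and 7550 to 13066 TPM in DNFB ears, with no marker under 1 TPM, and the part of the epidermis in the fall of F3 was not tested.

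The remaining clotting genes of the set split. Fgl2, a membrane prothrombinase and immune regulator of macrophages and T cells, went from 83.8, 95.8 and 110 to 345, 274 and 319 CPM, 3.24-fold higher (1.69 ± 0.14, edgeR adjusted p = 0.000219), and was not lowest in mouse 3. F13a1, the fibrin-crosslinking subunit known from dermal macrophages and platelets, was level at 227, 239 and 215 CPM in vehicle and 259, 215 and 257 CPM in DNFB ears (0.10 ± 0.11, edgeR adjusted p = 0.483). Vwf, the endothelial and platelet adhesion protein, stood at 38.6, 26.0 and 40.6 CPM in vehicle and 35.7, 44.8 and 33.7 CPM in DNFB ears (0.12 ± 0.19, edgeR adjusted p = 0.630). The groups overlapped for both.

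**Figure D4:**
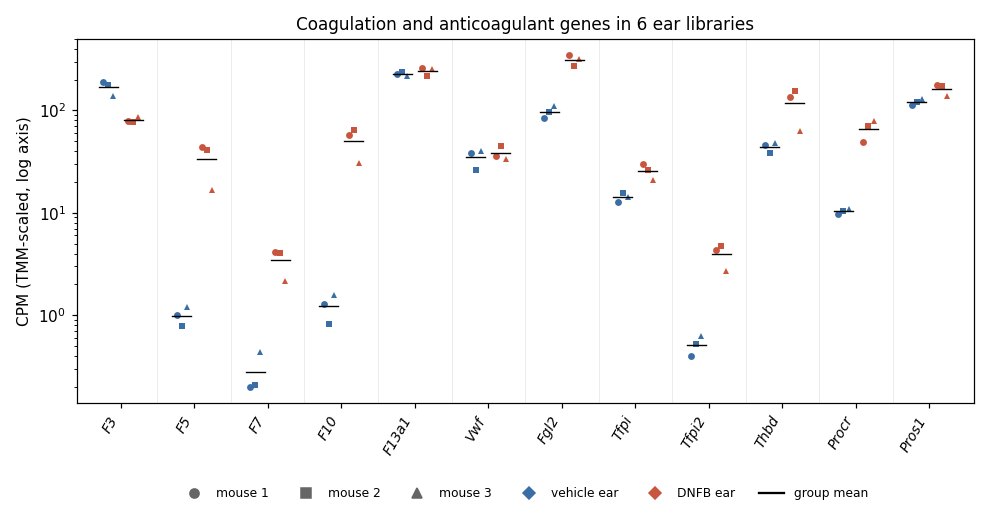
CPM on a log axis (y) of the 12 coagulation and anticoagulant genes (x) in each library, with blue for vehicle and red for DNFB ears, a symbol for each mouse and a bar for the group mean. F5, F7 and F10 rise from 1.59 CPM or less, F3 falls from a mean of 168 to 81.0 CPM, and F13a1 and Vwf overlap.

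All 5 anticoagulant genes were higher in DNFB ears, beside 25.9% of all genes tested. Procr, the endothelial receptor that presents protein C, measured 9.69, 10.4 and 11 CPM in vehicle ears and 48.8, 71.0 and 79.6 CPM in DNFB ears. It was 6.42-fold higher (2.68 ± 0.19, edgeR adjusted p = 0.000129), and mouse 3 had the highest DNFB ear, unlike most of the set. Tfpi2, a matrix-bound inhibitor related to Tfpi, went from 0.40, 0.52 and 0.63 to 4.36, 4.75 and 2.72 CPM (2.92 ± 0.32, edgeR adjusted p = 0.000529). Tfpi2 was testable only through the DNFB ears, so a difference was built into its call. Thbd, thrombomodulin, which turns thrombin toward protein C, went from 46.3, 38.7 and 47.6 to 136, 155 and 62.6 CPM, 2.66-fold higher (1.41 ± 0.31, edgeR adjusted p = 0.00845). Without both ears of mouse 1 or of mouse 2 Thbd did not pass (0.0553 and 0.115, the latter the highest of 18 alternatives, lowest 1.13e-05).

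Tfpi, the inhibitor of the tissue factor and factor VII complex, went from 12.6, 15.5 and 14.4 to 29.8, 26.3 and 21.0 CPM, 1.81-fold higher (0.86 ± 0.16, edgeR adjusted p = 0.00386). It did not pass without both ears of mouse 2 (0.0598, the highest of 18 alternatives, lowest 4.00e-05). On the length-scaled TPM the ratio of Tfpi to F3 was 0.055, 0.070 and 0.085 in vehicle ears and 0.396, 0.364 and 0.226 in DNFB ears. The inhibitor thus gained on the initiator in all 3 animals, while F3 remained the more abundant of the pair. Pros1, protein S, a cofactor of protein C, rose 1.35-fold, from 113, 120 and 130 to 176, 175 and 139 CPM (0.43 ± 0.12, edgeR adjusted p = 0.0237). With the mouse as a block it did not pass (0.0739), nor without any single library other than the vehicle or the DNFB ear of mouse 3 (0.0690 to 0.0941), nor without both ears of mouse 1 or 2 (0.212 and 0.198), and the range over its 18 alternatives was 0.00135 to 0.212.

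Blood endothelial markers, whose cells are a known site of Procr, Thbd, Tfpi and Vwf, rose in 7 of 12 cases, and Cldn5 fell. Their summed level was 253 to 345 TPM in vehicle and 357 to 530 TPM in DNFB ears, and none was under 1 TPM throughout. Per unit of the endothelial adhesion gene Pecam1, Procr was 0.243, 0.250 and 0.240 in vehicle and 0.647, 0.932 and 1.48 in DNFB ears. Thbd per Pecam1 was 0.450, 0.369 and 0.409 in vehicle and 0.698, 0.793 and 0.454 in DNFB ears, which in mouse 3 was nearly the vehicle level. Such ratios depend on the marker chosen. Pecam1 rose 1.62-fold, Cdh5 2.03-fold and Plvap 2.84-fold, while Tek did not pass and Cldn5 fell 2.07-fold. Of 8 platelet markers, 3 rose (Pf4, Ppbp and Itga2b), Gp1ba did not pass, and 4, among them Gp9, Gp6 and Tubb1, were under 1 TPM in every library. Of 9 hepatocyte markers only Alb could be tested, which was lower (−0.97, edgeR adjusted p = 0.0298), and 6 were under 1 TPM in every library. Their summed level was 3.36 to 4.53 TPM in vehicle and 2.70 to 18.8 TPM in DNFB ears, the highest in mouse 2, where Apoa1 was at 15.6 TPM beside 0.35 TPM or less in the other ears. Fibroblast markers, from cells known to make C1r, C1s and C3, had 4 of 10 higher and 1 lower at a summed 7236 to 8140 TPM in vehicle and 6738 to 8311 TPM in DNFB ears. Mast cell markers had 5 of 8 higher and 1 lower (912 to 934 against 1304 to 1365 TPM). Beside these counts of markers, 25.9% of all genes tested were higher and 25.4% lower. The part of any of these cell types in the results was not tested.

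The other genes of the cascades were taken from 2 lists of 75 genes in all, 2 of which (Cfhr4 and Mbl1) were not analysed here. Of the 44 that could be tested, 18 were higher, 7 lower and 19 did not pass, with a median log2 fold change of 0.36, beside 25.9% higher and 25.4% lower among all genes. Cpn1 and Proz were testable only through the DNFB ears, and without the genes of that kind 16 were higher and 7 lower. The median includes them. Many of the classical liver products were close to absent: 34 of the 73 were under 1 TPM in every library, among them prothrombin (F2), plasminogen (Plg), antithrombin (Serpinc1) and the pore component C8b, and C8a had no count at all. At this depth such transcripts were scarce or not detected, which does not show that their proteins were missing from the tissue. Proz and F8, given below, were also among the 34.

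Of the 20 other complement genes tested, 7 were higher, 4 lower and 9 did not pass (25.9% higher and 25.4% lower of all genes). Among the largest increases were the complement receptor integrin chains Itgam (log2 fold change 3.84, edgeR adjusted p = 0.000113), Itgb2 (3.36, 0.000187) and Itgax (2.28, 0.00333), with Cd93, a C1q receptor-like protein of endothelium and myeloid cells, at 1.67 (0.00670). Cpn1, the carboxypeptidase subunit that trims C3a and C5a, rose from a mean of 0.10 to 1.22 CPM (3.54, or 2.85 without both ears of mouse 3, 4.16 without those of mouse 1 and 2.65 by limma on TPM). It passed the filter on low counts only through the DNFB ears, so a difference was built into its being tested. The decreases were the collectin Colec11 (−1.59), the complement inhibitor Susd4 (−1.25), the factor B protease Cfd (−1.08, from 185 ± 18.8 to 87.8 ± 11.6 CPM, mean ± SD, n = 3) and vitronectin, Vtn (−0.59). Vtn did not pass with the mouse as a block (edgeR adjusted p = 0.0545, range over alternatives 0.0202 to 0.20). The most abundant by TPM that did not pass were the ficolin Fcna, Cd55b and the pore component C8g, at log2 fold changes of 0.10, 0.34 and −0.44 (edgeR adjusted p = 0.637, 0.273 and 0.204).

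Of the 24 other coagulation genes tested, 11 were higher, 3 lower and 10 did not pass (25.9% higher and 25.4% lower of all genes). The urokinase receptor Plaur rose most (4.52, edgeR adjusted p = 5.00e-05). Proz (1.80), the platelet and matrix protein Thbs1 (1.78) and urokinase, Plau (1.72), were also among the largest increases. Proz was testable only through the DNFB ears and was scarce, at 0.13 to 0.21 TPM in vehicle and 0.46 to 0.51 TPM in DNFB ears. The decreases were the protease inhibitor A2m (−1.85, from 103 ± 3.66 to 28.5 ± 10.1 CPM, n = 3), Gp1bb (−1.31) and factor VIII, F8 (−1.07). F8 was scarce too, at 0.64 TPM or less in every library. Gas6, Serpine2 and Vkorc1 were the most abundant that did not pass (0.25, −0.18 and −0.24, edgeR adjusted p = 0.153, 0.410 and 0.0631). Gas6 and Vkorc1 passed without both ears of mouse 3, and Vkorc1 also without its DNFB ear. Without both ears of mouse 2 the lists held 8 higher and 3 lower genes in place of 18 and 7, and Itgax, Cd93, Susd4, Thbs1, Gp1bb, F8 and Vtn were among those that did not pass there. Cd93, F8 and Vtn were also lost without both ears of mouse 1. F8 was lost as well without the vehicle ear of mouse 1, and Vtn without the vehicle or the DNFB ear of mouse 1 or 2, or with the DNFB ear of mouse 1 alone.

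The fibrinogen chains, chosen after their values were seen, rested on 2 animals. Fgg, the gamma chain, had no count in the 3 vehicle ears and 3.42, 6.45 and 0.25 CPM in the DNFB ears of mice 1, 2 and 3. Against a floor of 3 counts over the vehicle group this was at least 67.4-fold higher, at least 98.8-fold without the DNFB ear of mouse 3, at least 36.7-fold without that of mouse 2 and at least 44.1-fold to 45.7-fold without any single vehicle ear. Fgg did not pass the filter on low counts and was not tested in the main fit, so no p-value goes with these folds. Fga, the alpha chain, was at 3.49, 3.20 and 2.45 CPM in vehicle and 12.5, 15.9 and 1.73 CPM in DNFB ears. The difference missed the threshold (1.72 ± 0.68, edgeR adjusted p = 0.0709). Fga passed without the DNFB ear of mouse 3 (3.68e-05), without both ears of that mouse (0.000117), with the DNFB ear of mouse 1 alone (0.000141) and by DESeq2 (0.0160), with a range of 3.68e-05 to 0.364 over alternatives. In the fit with 1 DNFB ear only the vehicle ears supply the error. Fgb, the beta chain, had 2 counts in vehicle and 18 in DNFB ears and was not tested. Apoa1 of the hepatocyte list was highest in the same DNFB ear, that of mouse 2, and the part of liver-type transcripts in these values was not tested.

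Within animals, all 27 genes of the set that passed moved the same way in the 3 mice, as did 7834 of all 7862 genes called. The change was smallest in mouse 3 for 22 of the 27, or 81.5%, beside 64.8% of all genes called. Over the 24 that rose, the median within-animal log2 change was 2.30, 2.18 and 1.35 in mice 1, 2 and 3. Mouse 3 had the lowest DNFB ear for 20 of these 24 (83.3%, beside 69.0% of all genes called higher). The other 4 were C2, Serping1, Fgl2 and Procr. The smallest rises in mouse 3 were those of Pros1, at a log2 change of 0.09, and of Thbd, at 0.39 beside 1.55 and 2.00 in mice 1 and 2.

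**Figure D5:**
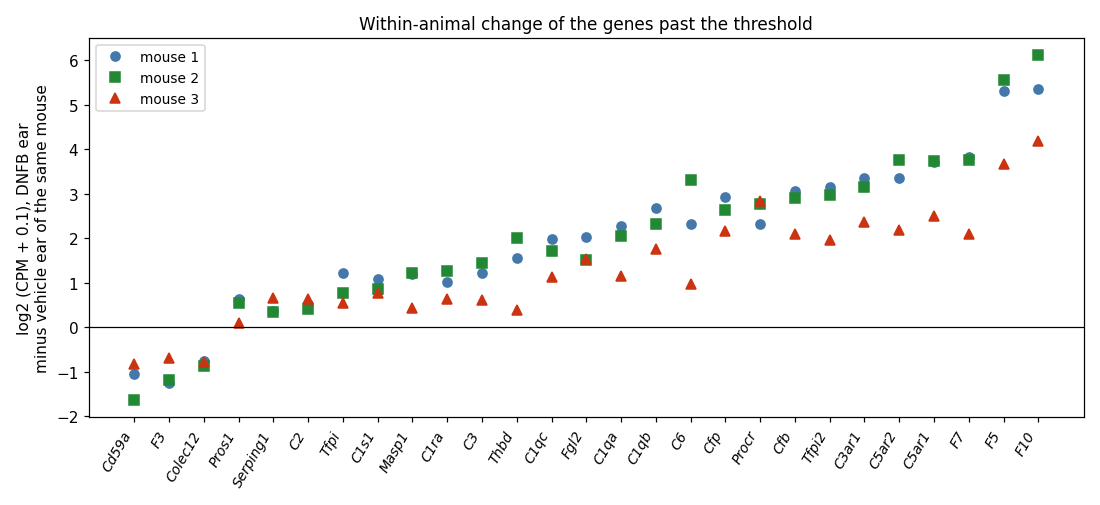
Difference in log2 (CPM + 0.1) between the DNFB and vehicle ear of the same mouse (y axis) for the 27 genes past the threshold (x axis, ordered by fitted change), with a symbol for each mouse. The red triangles of mouse 3 lie nearest to zero for 22 of the 27 genes, and no gene changes direction between mice.

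Genes that lie next to each other, by RefSeq order and with no protein-coding gene between them, are given here by their own calls. The run C1qb, C1qc and C1qa rose in full, as did the pairs C5ar2 and C5ar1, and Cfb and C2, the last at unequal sizes. F7, F10 and the next gene, Proz, were each higher, although F7 and Proz were testable only through the DNFB ears, and Thbd and its neighbour Cd93 were both higher. In the run C1rl, C1ra and C1s1, C1rl did not pass. Cr1l lies between Cd46 and Cr2, and neither Cr1l nor Cd46 passed. Cd59a fell while its neighbour Cd59b did not pass (−0.36, edgeR adjusted p = 0.605), and neither Cd55 nor its neighbour Cd55b passed. Cd59b was testable only through the vehicle ears, so a difference was built into its being tested.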

How the data were processed

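Whole ear skin of 3 mice was profiled by RNA-seq, a DNFB-treated and a vehicle-treated ear each. Per the labels' protocols, mRNA was captured on oligo(dT) beads and read as single ends of 50 bases on a DNBSeq instrument. HISAT and GRCm39 are named in the submitters' processing notes. For the counter, annotation and strand setting, the sources used here state nothing. Genes with overlapping exons or near-identical copies may therefore share reads. Besides Cfb and C2, exon overlaps with other gene models were found for C1s1, C5ar2, Cd55, F13a1 and F5. The authors deposited estimated counts, with decimals, rounded here before testing. Decimals occurred in 32.7% to 34.5% of values in 4 libraries and in 56.3% and 58.4% in the DNFB ears of mice 2 and 3. The deposited TPM and FPKM, per the file headers, are scaled for length and depth. TPM served for levels between genes and 1 alternative.

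The main test was edgeR 4.0.16 (R 4.3.3) with TMM, filterByExpr (minimum count 10), no block, the quasi-likelihood F test, two-sided, and Benjamini-Hochberg adjustment over 15317 genes at 0.05. The SE is the absolute log2 fold change over the square root of F. Groups and mouse numbers came from the sample titles. The ears of a mouse are paired by animal, although the correlation of their deviations from the group means was −0.027, −0.148 and −0.046. The fit was run on simulated counts with the same spread for all genes and no differences between mice. It called 45 and 44 of 50 genes set at log2 changes of 1 and −1, and 15 of 14959 unchanged genes. Far fewer genes were changed there than were called in these data, so those rates need not hold here. Alternatives were the mouse as a block, 2 other scalings (upper-quartile and DESeq2 size factors), DESeq2 1.42.0, limma-voom (limma 3.58.1), no low-count filter, a floor of 1 CPM required in 3 of the libraries, and leaving out each library or mouse. A fit of the DNFB ear of mouse 1 alone against vehicle and a limma fit of log2 (TPM + 0.1) were added after seeing the data. Named genes are the whole set, and of each further list up to 5 of the largest changes in each direction and 3 of the most abundant not past the threshold. Some genes of the further and marker lists are counted but not reported here by name. The set and lists were chosen with earlier results of these data known. The ratios of C3 to Serping1, Cfb to C2 and those to marker genes were chosen after the values were seen. Promoter sequences are RefSeq entries on GRCm38.p6, matched by symbol for 26 of the 37 genes, and no other coordinates are printed because the files use another build. No counting intervals were computed. The SE comes from the edgeR fit without a block, which uses the spread between ears within groups and shares information over genes. It is not the spread of the within-animal differences. An SD, where given, is the spread over the 3 ears of a group.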

Additional observations from a re-analysis of the deposited data

How the results depend on the processing

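Over 18 alternatives the number of the 37 genes called higher ran from 17 to 26, beside 24, and the number called lower from 3 to 4, beside 3. No gene past the threshold changed direction in any of them. Other tools, scalings and filters ended no call within the set. Nor did the DNFB ear of mouse 1 alone against the vehicle ears, but there only the vehicle ears supply the error and that ear is assumed to vary like them. C7 could not be tested with 1 CPM in 3 libraries. Of the further genes, F2r lost and Vkorc1 gained its call with upper-quartile factors and by limma on TPM. With the mouse as a replicate block 22 were higher and 3 lower, and the losses were Serping1 and Pros1. Among the further genes, of which 18 were then higher and 6 lower, the block ended the calls of Vtn and F2r and brought F2rl2 past the threshold. The block changed no other call in the set or the further lists. Leaving out 1 library gave 22 to 26 higher and 3 to 4 lower genes of the set, and 16 to 21 higher and 5 to 8 lower further genes. Leaving out both ears of a mouse gave 17 to 26 higher and 3 lower genes of the set and, in the further lists, 8 to 23 higher and 3 to 8 lower. Over all genes, leaving out a library or a mouse gave 1658 to 4585 higher and 936 to 4601 lower genes, beside 3966 and 3896. The lowest counts came without both ears of mouse 2, where 2 animals per group remained. Depth limits the genes of few counts, among them C6, C7, F7, Tfpi2, Cfi and Vsig4.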
